A study of Mus musculus with 14 samples.

Results

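The constitutive proteasome genes are those whose symbols run Psma1 to Psma7, Psmb1 to Psmb7, Psmc1 to Psmc6 or Psmd followed by a number. The rule matched 34 rows of the 56953 genes in the count table, each symbol once, and all 34 passed the filter on low counts that left 16027 genes for testing. They were followed in mouse skin across 6 groups and 14 libraries. Of the 34, 7 encode the 20S alpha ring, 7 the 20S beta ring, 6 the ATPases of the 19S base, 3 other parts of the base and 8 the 19S lid. The last 3, Psmd5, Psmd9 and Psmd10, are chaperones that help the 19S particle to assemble and leave it afterwards, so they are not subunits of the finished proteasome although the symbol rule takes them in.

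The 26S proteasome degrades proteins tagged with ubiquitin. Its barrel, the 20S core, holds 3 kinds of catalytic site on the inner face of the beta rings, and the 19S particle at the barrel's end receives the tagged protein, removes the tag, unfolds the chain and threads it in. NEDD8, a relative of ubiquitin, switches on the cullin-RING ligases, which attach ubiquitin to many substrates of the proteasome. When proteasome capacity falls short, cells are known to raise most of these genes together through the transcription factor Nfe2l1, and Nfe2l2 can raise some of them under oxidative stress.

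The genotypes compared were wild-type C57BL/6J mice, NEDD8fl/fl mice negative for K14-CreERT (Cre-negative below) and NEDD8fl/fl mice positive for it (knockout below). K14-CreERT is a ligand-dependent Cre recombinase under the keratin 14 promoter, which is active in basal keratinocytes, so that dermal, immune and muscle cells of the same skin keep the gene. Induction ran for 5 days before the experiment in knockout mice, and the inducing agent is not given in the labels. No induction is recorded for wild-type or Cre-negative mice, so loss of the gene and the induction itself cannot be told apart in any comparison with knockout skin. Each genotype received DMSO, with 2 wild-type, 3 Cre-negative and 3 knockout libraries, or a daily cream of 5% imiquimod (a Toll-like receptor agonist that causes psoriasis-like inflammation) until day 7, with 2 libraries each. The cream went on the back or on the ear, and the site of each library, the animal's age and whether animals were pooled are not given. Nothing ties a library to an animal, so the p-values measure the spread between libraries only.

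Depth ran from 5552954 to 34362477 counts per library, and the lowest count of any member in any library was 30, for Psmb2. The level of Nedd8 overlapped between knockout and Cre-negative skin with DMSO and was separate with imiquimod. It was 375, 158 and 147 CPM (counts scaled to a common library size) in knockout DMSO skin against 360, 290 and 291 in Cre-negative DMSO skin (two-sided exact permutation test p = 0.4, n = 3 and 3), and p was 0.117 over both treatments. Knockout DMSO replicate 1 had the 375 CPM, and replicates 2 and 3 lay below all 3 Cre-negative libraries. With imiquimod both knockout libraries, at 308.2 and 150.5 CPM, lay below both Cre-negative libraries, at 314.3 and 461 CPM. The edgeR test used below did not call that difference (-0.76 ± 0.50 SE on the log2 scale, n = 2 and 2). The part of the gene that Cre removes is not given, so a 3′ tag may lie outside it and the check does not settle the labels. Markers of keratinocytes were present in every library, with summed levels of 9970 to 55700 CPM, and so were those of skeletal muscle, at 863 to 17100 CPM. Read from Xist and Y-linked genes, wild-type libraries and knockout DMSO libraries were female without exception, all imiquimod-treated libraries of the floxed genotypes were male, and the Cre-negative DMSO libraries were 2 male and 1 female. Only that last group held both sexes, so a sex term in the model rests on its 1 female library against its 2 male ones. Knockout DMSO replicate 1, with the lowest total count and 17.5% of its counts in the ribosomal RNA gene Rn18s-rs5, and wild-type imiquimod replicate 1 stood apart in the members, as described below. Counts of called members are given below without them too.

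For 28 of the 34 members, RefSeq's promoter table (mouse build GRCm38.p6) held 30 windows of 300 bases around the transcription start. They were searched on both strands for TGACNNNGC (GCNNNGTCA on the other strand), the core of the antioxidant response element that Nfe2l1 and Nfe2l2 bind together with small Maf proteins. The motif was in 5 of the 30 windows (16.7%), against 12.4% of all 32851 windows of that length and 14.1% of those of tested genes. By gene it was in 17.9% of the members and 16.7% of the tested genes, shares near each other. Within 100 bases before the start it was in 3 of 28 members (10.7%) against 5.5% of all genes with an entry and 6.88% of the tested genes. These 3 were Psmb5, Psmb6 and Psmd9. Their last 100 bases before the start are shown 5′ to 3′ in the gene's direction with the motif in capitals. The same stretch of Psmd14, which had among the smallest p-values of the members and no such letters in its window, is shown for comparison.
Psmb5 (chr14:54617996-54618095, minus strand): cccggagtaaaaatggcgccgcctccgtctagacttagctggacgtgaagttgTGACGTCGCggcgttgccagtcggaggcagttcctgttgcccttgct
Psmb6 (chr11:70525257-70525356, plus strand): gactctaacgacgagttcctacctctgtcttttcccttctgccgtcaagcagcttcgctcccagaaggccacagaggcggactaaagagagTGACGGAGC
Psmd9 (chr5:123228090-123228189, plus strand): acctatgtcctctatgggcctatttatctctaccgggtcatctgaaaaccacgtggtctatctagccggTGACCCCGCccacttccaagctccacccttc
Psmd14 (chr2:61711594-61711693, plus strand): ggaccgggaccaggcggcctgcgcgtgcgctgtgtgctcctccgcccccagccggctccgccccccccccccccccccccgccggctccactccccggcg
The motif began 47 bases before the start in Psmb5, 9 bases before it in Psmb6 and 31 bases before it in Psmd9. In the other 2 members with a match, Psmc6 and Psmd12, it lay farther out, at 227 and 247 bases and on the opposite strand. A match is a description of the letters, and no binding was measured here.

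The first question was how proteasome transcripts in knockout skin compared with controls without imiquimod. In knockout DMSO skin 20 of the 34 members were higher than in Cre-negative DMSO skin and none was lower (edgeR's quasi-likelihood test, Benjamini-Hochberg adjusted p under 0.05). Over all genes tested, 14% were called higher and 15.7% lower. The median member differed by 0.97 on the log2 scale, a 1.96-fold higher level, against -0.06 for the median of all genes. The difference was positive for 33 of the 34, from -0.04 for Psmd8, a lid subunit, to 1.57 for Psmb6. The 3 knockout libraries lay above all 3 Cre-negative libraries in 25 members, against 21.8% of all genes.

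**Figure D1:**
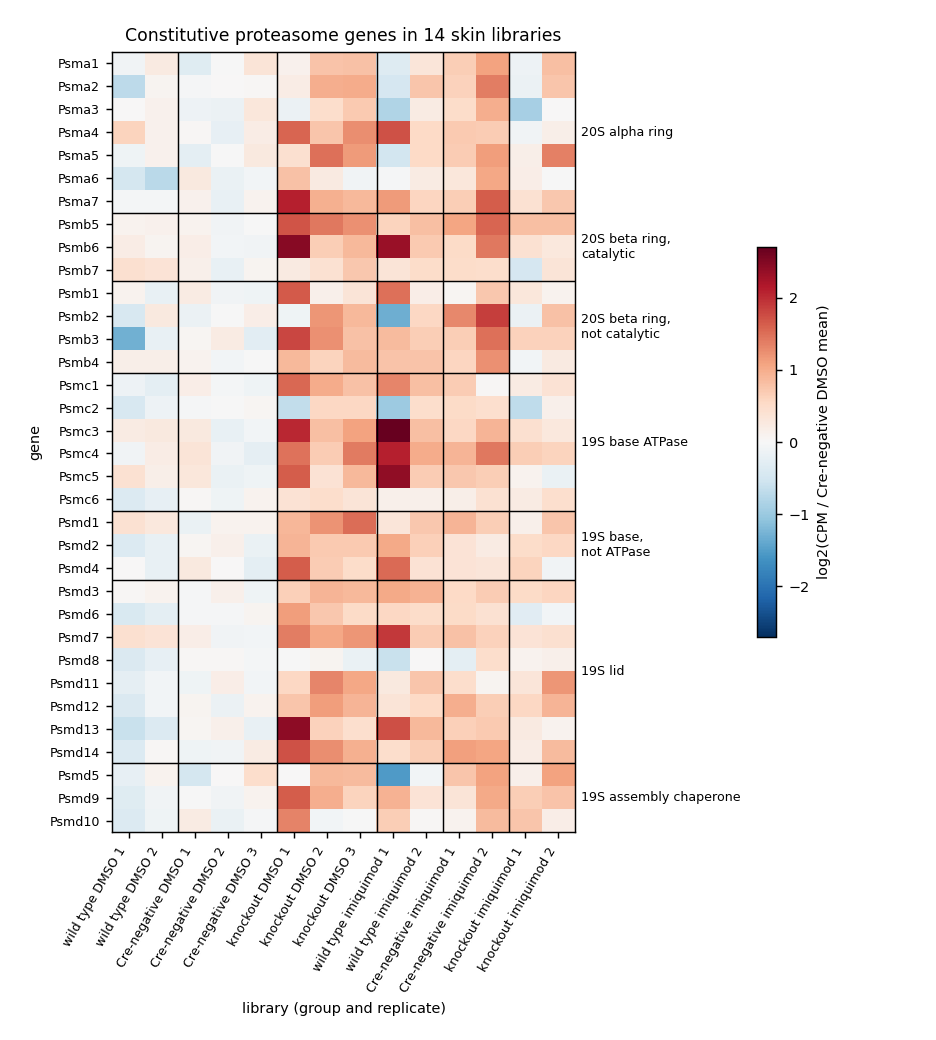
Level of each of the 34 genes (rows, grouped by role) in each of the 14 libraries (columns, grouped by genotype and treatment), as log2 of CPM over the mean of the 3 Cre-negative DMSO libraries. Knockout DMSO libraries are red in most rows, with Psmb6 at 2.47 in replicate 1 as its strongest value, and the first knockout DMSO and first wild-type imiquimod libraries show the most uneven columns.

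Psmb5 encodes the chymotrypsin-like site of the beta ring and is the target of proteasome inhibitors such as bortezomib. It lies on chromosome 14 at 54851576 to 54855479 on the minus strand (GRCm39). Its level was 47.2, 41.3 and 43.6 CPM in Cre-negative DMSO skin, 47.0 and 47.9 CPM in wild-type DMSO skin and 142, 118 and 103 CPM in knockout DMSO skin. Every knockout library exceeded every control library. The log2 difference from Cre-negative skin was 1.46 ± 0.24 (SE, n = 3 and 3; edgeR adjusted p = 6e-04), and it stayed past the threshold in 15 of 15 alternative analyses.

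Psmb6, the caspase-like site, on chromosome 11 at 70416212 to 70418475 (GRCm39), was at 299, 251 and 249 CPM in Cre-negative DMSO skin and at 1472, 419 and 485 CPM in knockout DMSO skin. All 3 knockout libraries were higher, with replicate 1 far above the other two. The log2 difference was 1.57 ± 0.50 (SE, n = 3 and 3; edgeR adjusted p = 0.029) and lost its call without that library. Psmb7, the trypsin-like site, on chromosome 2 at 38478048 to 38534099 (GRCm39), was at 102, 81.3 and 97.5 CPM against 110, 125 and 156 CPM. The knockout libraries again lay above the controls, but the log2 difference of 0.47 ± 0.26 (SE, n = 3 and 3) did not pass (edgeR adjusted p = 0.18), and wild-type DMSO skin had 125 and 120 CPM, within the knockout range. Nek6, which overlaps Psmb7 on the other strand, had 1718 counts in all 14 libraries together.

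Among the other members of the core, 2 of the 4 remaining beta subunits (Psmb3 and Psmb4) and 3 of the 7 alpha subunits (Psma4, Psma5 and Psma7) were higher. The alpha rings form the gate of the barrel. Psma7 had the largest of the alpha differences, 1.42 on the log2 scale, and Psma6 the smallest, 0.34, which did not pass.

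Differences in the 19S particle were of similar size. In the base, 3 of 6 ATPases (Psmc1, Psmc3 and Psmc4), which form the ring that unfolds substrates, and 2 of 3 other parts (Psmd1 and Psmd2, the large scaffold subunits) were higher. Psmd4, which carries a ubiquitin receptor, differed by 1.01 with an adjusted p of 0.057 (edgeR). In the lid 7 of 8 were higher, all but Psmd8. Of the chaperones Psmd9 was higher and Psmd5 and Psmd10 did not pass.

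Psmd14, also known as Rpn11, is the metalloprotease of the lid that cuts the ubiquitin chain off an arriving substrate. It lies on chromosome 2 at 61542038 to 61630720 on the plus strand (GRCm39). Its level was 38.6, 39.5 and 48.9 CPM in Cre-negative DMSO skin and 140, 100 and 81.7 CPM in knockout DMSO skin, with no overlap. The log2 difference was 1.34 ± 0.27 (SE, n = 3 and 3; edgeR adjusted p = 0.0029). Psmd1, on chromosome 1 at 85992341 to 86066873 (GRCm39), was at 77.8, 93.5 and 94.2 CPM against 164, 203 and 251 CPM, also with no overlap. Its log2 difference was 1.22 ± 0.26 (SE, n = 3 and 3; edgeR adjusted p = 0.0039).

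The count of 20 depended on the analysis, while no called member changed sign. It was 12 without knockout DMSO replicate 1 (median 0.81), 8 to 10 when any 1 of the 3 Cre-negative libraries was left out, and 1, Psmb5, when sex was a term in the model. Libraries were scaled by the trimmed mean of M-values (TMM), and with library size alone as the scaling 7 members were called. That scaling moved the median of all genes to -0.41 and the median member to 0.57. A change of scaling shifts all genes of a comparison by about the same amount, so the gap between these medians hardly changes whatever the data. The calls of all genes went from 2243 higher and 2509 lower to 1183 higher and 3378 lower.

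Wild-type DMSO skin gave a second control, all of one sex with the knockout DMSO libraries. Against it 16 members were higher in knockout DMSO skin and none lower, where 11.3% of all genes were higher and 14.4% lower. The median member differed by 0.99, all 34 differences were positive, and 27 members did not overlap (24.2% of all genes were separate and higher). Psmb5 differed by 1.35 ± 0.27 (SE, n = 3 and 2; edgeR adjusted p = 0.0031) and Psmd14 by 1.5 ± 0.32 (SE, n = 3 and 2; edgeR adjusted p = 0.0042). The largest difference, 1.98, was that of Psmb3, and the smallest, 0.08, that of Psmb7. Both comparisons use the same 3 knockout libraries. The count was 13 without knockout DMSO replicate 1 (median 0.88), and it fell to 1 without wild-type DMSO replicate 1, to 5 without replicate 2 and to 5 when only these groups were fitted.

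The 2 untreated controls were set against each other. Between Cre-negative and wild-type DMSO skin edgeR called 0 of the 34 genes in either direction, as it did for all genes (0% higher and 0% lower). No member had an unadjusted p under 0.05, and DESeq2 and limma's voom also called 0. The median difference was 0.08, with Psmb3 at 0.66 and Psmd7 at -0.40 as the extremes.

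**Figure D2:**
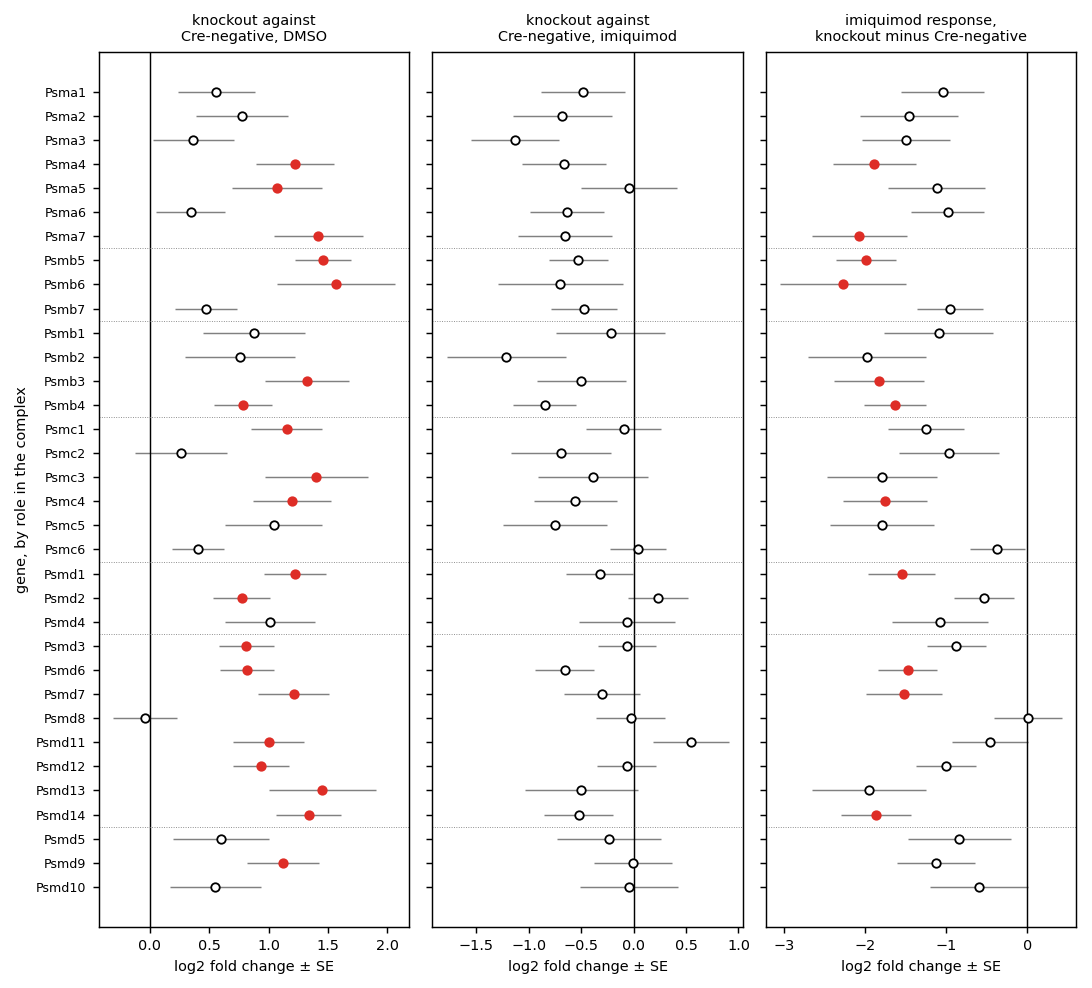
Log2 fold change with its standard error for each of the 34 genes, grouped by role from top to bottom, in knockout against Cre-negative skin with DMSO (left), with imiquimod (middle) and in the difference between the imiquimod responses of the same genotypes (right). Filled points passed an adjusted p of 0.05, which 20 genes did on the left, 0 in the middle and 11 on the right, and each panel has its own horizontal scale.

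Summed over the 34 genes, the level was 5804 and 5811 CPM in wild-type DMSO skin and 6459, 5866 and 5787 CPM in Cre-negative DMSO skin. In knockout DMSO skin it was 16420, 10140 and 10090 CPM, so replicates 2 and 3 alone also exceeded all 5 untreated controls. After imiquimod it was 14940 and 9035 CPM in wild-type skin, 8530 and 10550 CPM in Cre-negative skin and 7329 and 7949 CPM in knockout skin. Untreated controls were lowest, and imiquimod-treated knockout skin lay between them and every other treated or knockout library. As a share of all counts, with no scaling, the sum was 0.724% ± 0.026 (SD, n = 3) in Cre-negative and 1.09% ± 0.063 (SD, n = 3) in knockout DMSO skin. On that scale Cre-negative imiquimod skin, at 0.76% ± 0.012 (SD, n = 2), was close to its DMSO control, so the treated groups' place depended on the scaling. In bulk skin a change in the number of cells of a type and a change in RNA per cell cannot be told apart.

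**Figure D3:**
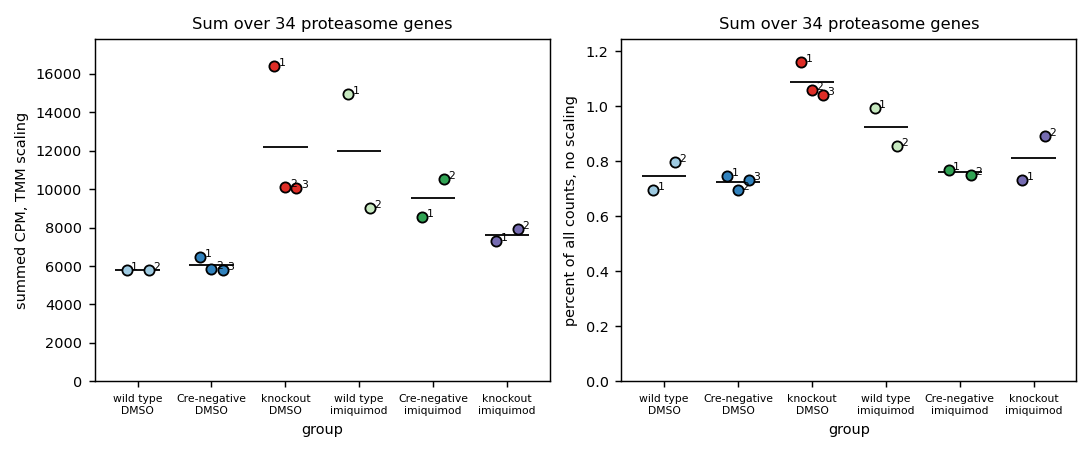
Sum of the 34 genes in each library by group, in CPM with TMM scaling (left) and as percent of all counts without scaling (right). Points are libraries with their replicate number and lines are group means; knockout DMSO libraries are above both untreated control groups in both panels, at 10090 to 16420 CPM and at 1.04% to 1.16% of counts.

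Markers of the skin's cell types moved with these groups. The 8 keratinocyte markers summed to 12000 to 19600 CPM in Cre-negative and to 25200 to 42100 CPM in knockout DMSO skin, with 2 of 8 higher and 2 lower. The 8 skeletal muscle markers summed to 6390 to 17100 CPM against 1330 to 2390 CPM, with 8 of 8 lower. The 8 neutrophil markers went from 65.5 to 690 CPM up to 17000 to 63200 CPM, with 7 of 8 higher, and 1 of the 8 was at 0 in all Cre-negative DMSO libraries. That list includes S100a8 and S100a9, and its sum does not show which cells the transcripts came from. Of the other lists, 1 of 6 macrophage, 3 of 4 tested T cell, 2 of 6 fibroblast and 2 of 5 adipocyte markers were lower and 1 of 5 endothelial markers was higher. In the imiquimod groups the keratinocyte sum was 20500 to 30200 CPM in Cre-negative and 9970 to 16000 CPM in knockout skin. With TMM scaling the summed proteasome level went the same way as this sum in both treatments, and the fibroblast sum went the opposite way. With DMSO the fibroblast sum was 1990 to 2150 CPM in Cre-negative and 778 to 1000 CPM in knockout skin. With imiquimod it was 608 to 1440 CPM in Cre-negative and 1490 to 1870 CPM in knockout skin. Without scaling the proteasome sum with imiquimod was 0.76% of all counts in Cre-negative and 0.812% in knockout skin. Their libraries overlapped on that scale. The marker sums were computed with TMM scaling only, so no match between the sums was looked at without scaling. Between the same groups 5 of 8 neutrophil, 3 of 6 macrophage, 4 of 5 endothelial and 1 of 6 fibroblast markers were higher in knockout skin, and 2 of 8 keratinocyte and 1 of 4 tested T cell markers were lower. With imiquimod against DMSO, 8 of 8 neutrophil markers were higher in Cre-negative and in wild-type skin and 6 of 8 in knockout skin. In that comparison muscle markers were lower for 8 of 8 in Cre-negative, 6 of 8 in wild-type and 0 of 8 in knockout skin, and 2 of 8 keratinocyte markers were higher in Cre-negative and in wild-type skin and 1 of 8 was lower in knockout skin. The part of cell make-up in the proteasome differences was not tested.

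The second question was the response to imiquimod, first in skin that kept Nedd8. In Cre-negative skin 6 of 34 members were higher after imiquimod and none lower, against 8.15% of all genes higher and 10.1% lower. The 6 were Psmb2, Psmb4 and Psmb5 of the beta ring, the ATPase Psmc4, and Psmd12 and Psmd14 of the lid. All 34 differences were positive, with a median of 0.72, and 29 members did not overlap (24.8% of all genes). Psmb5 went from 47.2, 41.3 and 43.6 CPM to 92.7 and 131 CPM, with no overlap, a log2 difference of 1.35 ± 0.25 (SE, n = 2 and 3; edgeR adjusted p = 0.003). The count ran from 1 to 5 when 1 library was left out, was 1 without Cre-negative imiquimod replicate 2, which had the highest Rn18s-rs5 share at 19.1%, and was 0 with library size alone, where the median member was at 0.13 and the median of all genes at -0.63.

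In wild-type skin, all female, 9 members were higher after imiquimod and none lower, against 9.59% of all genes higher and 11.8% lower. They were Psmb3, the ATPases Psmc1, Psmc3, Psmc4 and Psmc5, and Psmd2, Psmd3, Psmd6 and Psmd13. The median was 0.71 with 30 of 34 positive, down to -0.57 for the chaperone Psmd5. Psmb5, at 47.0 and 47.9 CPM before and 67.0 and 76.8 CPM after, was not among them. The count was 0 without wild-type imiquimod replicate 1 (median 0.59), 0 without wild-type DMSO replicate 1, 1 without wild-type DMSO replicate 2, and 13 without wild-type imiquimod replicate 2. With library size alone it was 0, with the median member at 0.05 and that of all genes at -0.76.

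In knockout skin the differences were mostly negative. After imiquimod 1 of 34 members, the lid subunit Psmd6, was lower than in knockout DMSO skin and none was higher. Of all genes 2.52% were lower, a share near that of the members, and 8.56% were higher. Libraries were separate and lower in 17 members, against 18.9% of all genes, and separate and higher in 1, against 22.5%. Psmd6 was at 151, 114 and 97.8 CPM with DMSO and at 55.4 and 65.1 CPM with imiquimod, with no overlap, and fell by 1.0 ± 0.26 on the log2 scale (SE, n = 2 and 3; edgeR adjusted p = 0.026). The median member differed by -0.61 and only Psmd5 and Psmd8 had positive values, 0.04 and 0.16. Sex cannot be told apart from treatment here, since the DMSO libraries were female and the imiquimod libraries male. Psmd6 lost its call without knockout DMSO replicate 1, where the median member was at -0.39, and when any 1 of the imiquimod libraries was left out.

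Among imiquimod-treated mice, all male in these genotypes, 0 of 34 members passed between knockout and Cre-negative skin by edgeR, where 11.6% of all genes were higher and 6.33% lower. At an unadjusted p under 0.05 there were 3, Psmb4, Psma3 and Psmd6, and DESeq2 called 2 of these lower, Psma3 and Psmb4, while limma's voom called 0. The shares of all genes by those criteria are not given here. The median was -0.48 and 31 differences were negative, from -1.22 for Psmb2, and 3 were positive, up to 0.55 for Psmd11, a lid subunit.

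Psmb4, a beta subunit with no catalytic site, was at 246 and 386 CPM in Cre-negative and 158 and 194 CPM in knockout skin with imiquimod. The groups did not overlap, and the log2 difference was -0.85 ± 0.30 (SE, n = 2 and 2; edgeR adjusted p = 0.066). Psma3, an alpha subunit, was at 91.1 and 127 CPM against 34.9 and 65.1 CPM, a log2 difference of -1.13 ± 0.42 (SE, n = 2 and 2; edgeR adjusted p = 0.081). Psmd6 was at 98.1 and 91.8 CPM against 55.4 and 65.1 CPM, a log2 difference of -0.66 ± 0.28 (SE, n = 2 and 2; edgeR adjusted p = 0.13). All 3 genes were lower in both knockout libraries without passing the threshold. Such separation was common with 2 libraries per group. It held for 17 of the 34 members in this direction, against 25.3% of all genes, and for 1 member in the other, against 30.7%. With library size alone the median member was at -0.05 and the median of all genes at 0.42.

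The third question was whether the imiquimod response differed between knockout and Cre-negative skin. For 11 of 34 members the response was lower in knockout skin and for none was it higher, against 9.63% of all genes lower and 14% higher. The median difference of responses was -1.35, against 0.11 for all genes, and it was negative for all but Psmd8. The members past the threshold came from both rings of the core (Psma4, Psma7, Psmb3, Psmb4, Psmb5 and Psmb6), the base (Psmc4 and Psmd1) and the lid (Psmd6, Psmd7 and Psmd14). The contrast shares its DMSO libraries with the comparison of untreated skin, so the values are not separate evidence. In the same contrast 4 of 8 keratinocyte markers and 1 T cell marker were lower, and 6 of 8 muscle, 3 fibroblast, 2 macrophage, 2 endothelial and 1 adipocyte marker were higher, with 1 neutrophil marker higher and 2 lower, and their part in it was not tested.

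Psmb5 shows the pattern. It was at 41.3 to 47.2 CPM in Cre-negative skin with DMSO and at 92.7 and 131 CPM with imiquimod, but at 103 to 142 CPM in knockout skin with DMSO and at 77.7 and 77.7 CPM with imiquimod. Treated knockout libraries lay below both treated Cre-negative libraries and above all untreated controls. They also lay above both treated wild-type libraries, at 67.0 and 76.8 CPM. The difference of responses was -1.99 ± 0.37 (SE; 10 libraries in 4 groups; edgeR adjusted p = 0.0032) and stayed past the threshold in 19 of 19 alternatives. In 4 of these a group had 1 imiquimod library left, which the fit assumes to vary like the other groups. Psmb6 had the largest value, -2.27 ± 0.78 (SE; edgeR adjusted p = 0.049), and kept its call in 7 of 19. Without knockout DMSO replicate 1 the count was 11 again with a median of -1.26, but Psmb3, Psmb6 and Psmd7 were not among them. The count of 11 fell to 1, Psmb5, with sex in the model, with library size alone, and without knockout imiquimod replicate 1.

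The catalytic sites have interferon-inducible counterparts, Psmb8, Psmb9 and Psmb10, which replace Psmb5, Psmb6 and Psmb7 in the immunoproteasome of immune and inflamed cells. Psmb9 was at 41.5, 53.8 and 90.4 CPM in Cre-negative DMSO skin and at 7.90, 9.80 and 12.4 CPM in knockout DMSO skin. It fell by 2.61 ± 0.40 on the log2 scale (SE, n = 3 and 3; edgeR adjusted p = 0.00045), with a call in 15 of 15 alternatives. Psmb8 was at 25.4, 23.2 and 42.1 CPM against 11.7, 6.31 and 15.8 CPM and fell by 1.41 ± 0.42 (SE, n = 3 and 3; edgeR adjusted p = 0.022), a call that ended without Cre-negative DMSO replicate 3 or without knockout DMSO replicate 2. Psmb10 did not go with them, at 12.6, 11.9 and 18.6 CPM against 39.7, 16.9 and 24.9 CPM (log2 difference 0.91 ± 0.36 SE, n = 3 and 3; edgeR adjusted p = 0.072).

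A ratio of 2 genes within a library is free of the scaling between libraries, although its absolute size is not a comparison of the genes' levels. These ratios were chosen after the values of the genes were seen and are given without a test. The log2 ratio of Psmb5 to Psmb8 was 0.90, 0.83 and 0.05 in Cre-negative DMSO skin and 3.60, 4.22 and 2.70 in knockout DMSO skin. That of Psmb6 to Psmb9 was 2.85, 2.22 and 1.46 against 7.54, 5.42 and 5.29. Both ratios were separate between the groups. Psmb7 to Psmb10, at 3.01, 2.78 and 2.39 against 1.47, 2.88 and 2.65, overlapped. After imiquimod the Psmb5 to Psmb8 ratio was 2.0 ± 0.57 (SD, n = 2) in Cre-negative and 2.39 ± 0.58 (SD, n = 2) in knockout skin, within each other's spread. That of Psmb6 to Psmb9 stayed apart, at 3.74 and 3.66 in Cre-negative and 4.35 and 4.39 in knockout skin. In wild-type imiquimod skin the Psmb6 to Psmb9 ratio was 6.50 and 3.80, on both sides of the treated knockout values. Its Psmb5 to Psmb8 ratio was 1.86 and 1.81, against 0.29 and 0.73 in wild-type DMSO skin. Psmb9 in wild-type skin was at 70.0 and 48.6 CPM with DMSO and 14.9 and 31.4 CPM with imiquimod (edgeR adjusted p = 0.053).

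**Figure D4:**
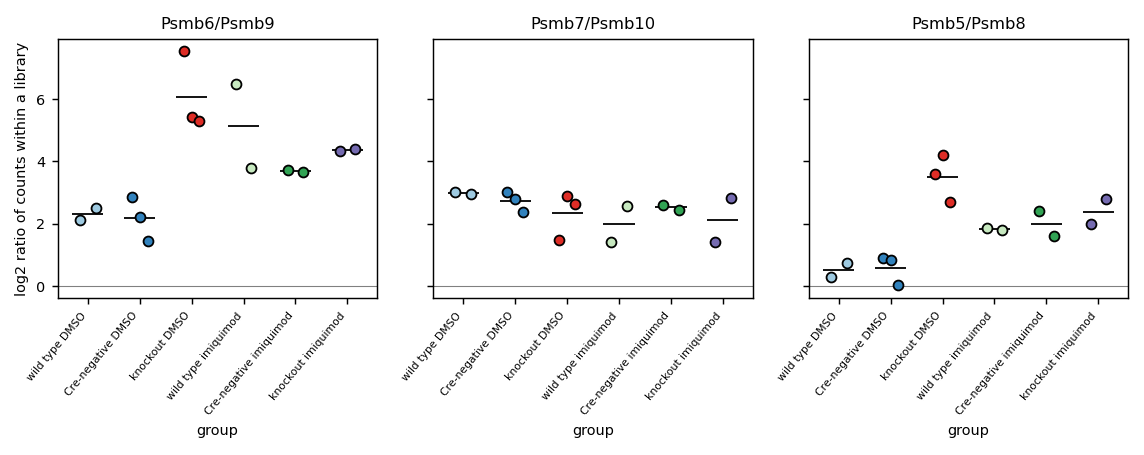
Log2 ratio of the counts of each constitutive catalytic gene to its immunoproteasome counterpart within each library, by group; points are libraries and lines are group means. For Psmb6/Psmb9 and Psmb5/Psmb8 the 3 knockout DMSO libraries lie above all 5 untreated control libraries, while for Psmb7/Psmb10 the groups overlap.

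Genes around the proteasome were taken from a list of 51, of which 48 were tested. In knockout against Cre-negative DMSO skin 12 (25%) were higher and 3 (6.25%) lower, against 14% and 15.7% of all genes. With sex in the model 3 of these 15 calls were kept, Psmb8, Psmb9 and Maff, and without Cre-negative DMSO replicate 3 only 4 of the 12 higher genes kept theirs, Rad23b, Ufd1, Nfe2l2 and Maff. With library size alone 6 of the 15 were kept, and without Cre-negative DMSO replicate 2, 8 were. The 12 included genes bound to the 19S particle, the deubiquitinases Usp14 (0.95 ± 0.25 SE) and Uchl5 (0.77 ± 0.23 SE), the redox protein Txnl1 and the stress-induced Zfand2a (1.32 ± 0.38 SE). Others were the activator Psme3, the core assembly chaperone Psmg4, the shuttle Rad23b (1.27 ± 0.26 SE), which carries ubiquitinated proteins to the proteasome, Ufd1, a partner of the segregase Vcp, and Uba1, the enzyme that activates ubiquitin. The 3 lower genes were Psmb8, Psmb9 and Ddi2, the protease known to activate Nfe2l1, at 166, 181 and 154 CPM against 50.2, 80.0 and 80.7 CPM (-1.25 ± 0.33 SE, n = 3 and 3; edgeR adjusted p = 0.013). Pomp, the chaperone that starts the beta ring, was at 352, 305 and 325 CPM against 1416, 382 and 683 CPM, higher in all 3 knockout libraries without passing (edgeR adjusted p = 0.059), and the 1416 CPM belonged to replicate 1.

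The transcription factors differed from each other. Nfe2l2 was at 63.9, 55.5 and 66.1 CPM in Cre-negative and 165, 184 and 194 CPM in knockout DMSO skin, with no overlap, and rose by 1.55 ± 0.27 on the log2 scale (SE, n = 3 and 3; edgeR adjusted p = 0.001). Its partners Maff (1.44 ± 0.27 SE) and Mafg (0.76 ± 0.24 SE) were higher too. Nfe2l1 was at 199, 235 and 189 CPM against 150, 137 and 150 CPM, below the controls in all 3 libraries without passing (-0.51 ± 0.23 SE, n = 3 and 3; edgeR adjusted p = 0.11). Its transcript does not show its activity, which is known to be set by processing of the protein. A higher Nfe2l2 was not particular to knockout skin. In Cre-negative skin imiquimod against DMSO gave 1.23 ± 0.29 for Nfe2l2 and 1.07 ± 0.29 for Maff (SE, n = 2 and 3; edgeR adjusted p = 0.011 and 0.022). Mafg, at 0.18, did not pass there. In wild-type skin Nfe2l2 was at 56.4 and 43.6 CPM with DMSO and at 223.9 and 184.2 CPM with imiquimod.

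With imiquimod 3 genes of the list (6.25%) were lower in knockout than in Cre-negative skin, a share near the 6.33% of all genes, and none was higher. They were Nfe2l1 (-1.03 ± 0.29 SE; edgeR adjusted p = 0.026), whose call was kept in 7 of 13 alternatives and ended without Cre-negative imiquimod replicate 1 and without knockout imiquimod replicate 1 or 2, and the interferon-inducible activator subunits Psme1 and Psme2. Psme2 was at 108 and 169 CPM in Cre-negative and 22.3 and 36.3 CPM in knockout skin, a log2 difference of -2.24 ± 0.42 (SE, n = 2 and 2; edgeR adjusted p = 0.0035). Psme1 was at 84.9 and 98.7 CPM against 34.3 and 27.3 CPM (-1.58 ± 0.31 SE, n = 2 and 2; edgeR adjusted p = 0.0045). Both genes separated the groups, unlike in DMSO skin, where Psme1 differed by 0.05 and Psme2 by -0.18. The difference of responses was -1.63 ± 0.39 for Psme1 and -2.06 ± 0.52 for Psme2 (SE; edgeR adjusted p = 0.011 and 0.014), and 9 genes of the list (18.8%), Nfe2l2 among them, were lower in that contrast with none higher, against 9.63% and 14% of all genes. With sex in the model or with library size alone 0 of these 9 calls were kept, and without knockout imiquimod replicate 1 only that of Psme1 was. Without 1 of the other Cre-negative or knockout libraries 4 to 9 were kept.

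Among the members 2 libraries were uneven. Taken against the mean of Cre-negative DMSO skin, the SD over the 34 members of a library's log2 difference was 0.81 in knockout DMSO replicate 1 and 1.08 in wild-type imiquimod replicate 1, and 0.12 to 0.46 in the other 12 libraries. In wild-type imiquimod replicate 1, Psmc3 stood at 2.70 and Psmd5 at -1.53, and 7 members lay below all 5 untreated control libraries. The member-by-member difference of each of these libraries from its own group was alike. Knockout DMSO replicate 1 minus the mean of replicates 2 and 3 and wild-type imiquimod replicate 1 minus replicate 2 had Pearson's r = 0.85 and Spearman's rho = 0.85 over 34 genes, which share no library and are not independent replicates. Of the 34 genes 17 were higher and 11 lower in both, with Psmb6 at 1.71 and 1.62 and Psmb2 at -1.15 and -1.89. The GC content of the genes' transcripts had r = 0.36 and 0.40 with these differences, and the part of sample handling in them was not tested. Without knockout DMSO replicate 1, Psmb5 and Psmd14 kept their calls in untreated skin.

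**Figure D5:**
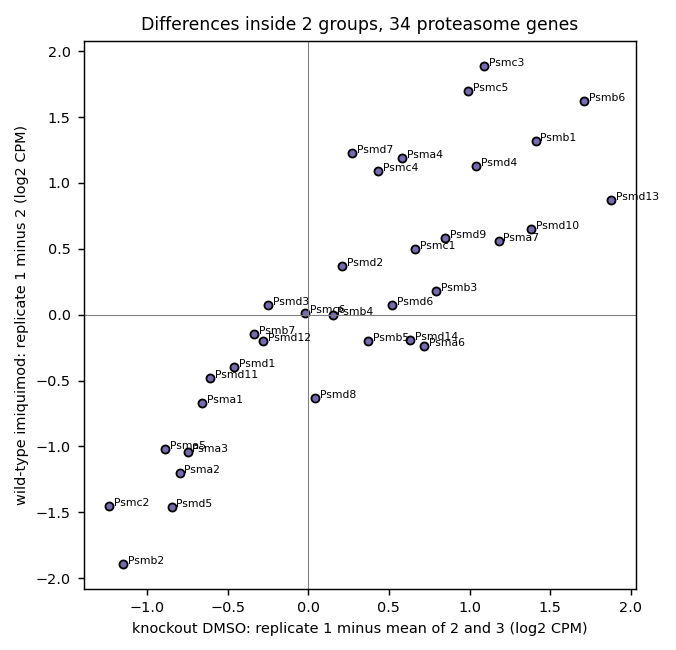
Each point is 1 of the 34 genes: on the horizontal axis the log2 CPM of knockout DMSO replicate 1 minus the mean of replicates 2 and 3, on the vertical axis that of wild-type imiquimod replicate 1 minus replicate 2. The points run along a rising line (r = 0.85), from Psmb2 and Psmc2 at the lower left to Psmb6 and Psmd13 at the upper right.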

How the data were processed

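RNA of 14 skin libraries was made into QuantSeq forward 3′ tag libraries, per the labels' protocols. The authors deposited raw read counts per gene, whole numbers that featureCounts writes per the file headers, with GRCm39 exon positions. The deposited gene length, in the other unit (bases), served only to describe genes. The submitters' processing notes name GRCm38, GRCm39, STAR, DESeq2 and featureCounts, with no role or version. How strand and multi-mapping reads were handled is not stated in these sources. Counts shared with pseudogenes are therefore uncertain. Named pseudogenes of these members had counts only for Psma5-ps (51 in all libraries). The series' design text describes a NEDD8 inhibitor that no library's labels carry.

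Genes passing filterByExpr on the 6 groups were scaled by TMM and fitted in 1 quasi-likelihood model (edgeR 4.0.16, R 4.3.3) with a mean per group. The p-values were adjusted by Benjamini-Hochberg over all 16027 genes with a threshold of 0.05. Each standard error is the fold change over the root of its F statistic. Levels are CPM on TMM-scaled library sizes. The script was tested on simulated data. Alternatives used DESeq2 1.42.0, limma 3.58.1's voom with quality weights, other scalings, filters, terms and sets of libraries. Members and lists were chosen with earlier results of these data known. Values in full are given for the 3 members with the smallest p with DMSO and with imiquimod, the 3 catalytic members and any member called against the trend. Pathway genes are named when past the threshold between knockout and Cre-negative skin, and Psmb8, Psmb9, Psmb10, Nfe2l1, Nfe2l2, Pomp and Nedd8 always. No pair of libraries was identical.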

Additional observations from a re-analysis of the deposited data

Results flagged for a closer look

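The imiquimod response differed between knockout and Cre-negative skin for 11 members by a test of the difference itself (edgeR's contrast of responses, adjusted p under 0.05). The log2 differences, knockout minus Cre-negative, were -1.88 for Psma4, -2.07 for Psma7, -1.99 for Psmb5, -2.27 for Psmb6, -1.83 for Psmb3, -1.63 for Psmb4, -1.75 for Psmc4, -1.55 for Psmd1, -1.47 for Psmd6, -1.52 for Psmd7 and -1.86 for Psmd14. The 4 groups differ in sex as well, with female knockout DMSO libraries, male imiquimod libraries and a mixed Cre-negative DMSO group. With sex in the model Psmb5 kept its call and the other 10 did not. That term was estimated from the mixed group alone, so the calls kept or lost with it cannot tell sex apart from genotype and treatment.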

How the results depend on the processing

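Under the alternatives run, no called member changed sign. Of the medians over members, that between the untreated controls, with no call, went from 0.08 to -0.01 with library size alone. Where leaving out 1 library left a group with 1, the fit assumed that library to vary like the other groups. With library size alone as the scaling the counts of called members were 7 for knockout against Cre-negative DMSO skin, 3 against wild-type DMSO skin, 0 for the imiquimod response of each genotype and 1 for the difference of responses. With sex as a term, estimated from the Cre-negative DMSO libraries alone, they were 1 for knockout against Cre-negative DMSO skin, 2 for the response of Cre-negative skin, 0 for that of knockout skin and 1 for the difference of responses. With only the compared groups fitted they were 5 for knockout against wild-type DMSO skin, and 12, 1 and 0 for the responses of Cre-negative, wild-type and knockout skin. DESeq2 called 2 between the imiquimod-treated genotypes, 10 and 2 for the responses of Cre-negative and knockout skin and 19 for the difference of responses. Without the 2 libraries highest in Rn18s-rs5 the responses of Cre-negative and wild-type skin had 3 and 14. Leaving out 1 library at a time gave 8 to 18 for knockout against Cre-negative DMSO skin, 1 to 13 against wild-type DMSO skin, 0 to 1 between the imiquimod-treated genotypes, 1 to 5, 0 to 13 and 0 to 2 for the responses of Cre-negative, wild-type and knockout skin, and 1 to 13 for the difference of responses. The cause of these shifts was not tested beyond the smaller number of libraries.

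Libraries with the same replicate number had correlations of their deviations from -0.32 to 0.493 over 31 pairs, 11 of them over 0.1. Pairs with other numbers ran from -0.493 to 0.369 over 50 pairs, 13 of them over 0.1. The highest value, 0.493, was that of knockout DMSO replicate 1 with wild-type imiquimod replicate 1. In a group of 2 libraries the deviations mirror each other, which ties these values together. The check therefore cannot decide whether the numbers pair the libraries. With a replicate block the counts were 22 for knockout against Cre-negative DMSO skin, 13 against wild-type DMSO skin, 0 between the controls, 1 between the imiquimod-treated genotypes, 8, 8 and 1 for the responses of Cre-negative, wild-type and knockout skin and 15 for the difference of responses. Depth limited Psmb2 most, whose lowest count in a library was 30.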
